A study of Mus musculus with 1 sample.

Results

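The genes described here are the nucleoporins, the soluble transport receptors of the importin and exportin families, and the core of the Ran GTPase cycle. They were taken by symbol from the platform's probe annotation, with a pattern covering Nup, Kpna, Kpnb, Ipo, Xpo, Tnpo and Ranbp symbols followed by a number, plus Ran, Rangap1 and Rcc1. This gave 52 probes of 50 genes, out of 20690 probes with a symbol that name 19321 genes. Ran and Xpo7 had 2 probes each and the other 48 genes had 1.

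The sample was the parental RAW264.7 line, a mouse line that resembles macrophages and was transformed with Abelson leukaemia virus, grown in RPMI-1640 medium with 10% FCS. The study asked which genes the uptake of peroxiredoxin protein needs, by setting this line against ENU mutants that had lost uptake. Mutant arrays were not analysed here, and no agent is named in the labels for the parental cells themselves. Total RNA was amplified, labelled with Cy5 and read on 1 array from Toray, so no value has a replicate, no test between samples could be made, and the number of arrays limits the precision. All 6 macrophage markers checked passed both limits defined below, among them Spi1 at 858 and Csf1r at 642, whereas 6 of 14 markers of other cell types passed the lower limit and 1, the germ cell gene Ddx4 at 190, passed the higher one.

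Nuclear pores are large channels through the nuclear envelope, built from many copies of the proteins called nucleoporins. Scaffold nucleoporins form rings that hold the pore open, and others carry phenylalanine-glycine repeats that fill the channel and keep large molecules out. Import receptors pick up cargo in the cytoplasm and drop it where they meet Ran bound to GTP inside the nucleus, while exportins need Ran-GTP to hold their cargo. In macrophages this traffic carries, among much else, the NF-kB and STAT factors of inflammatory signalling.

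Signal here means the median pixel intensity of a spot, in arbitrary units, with no background taken off. A gene takes its highest probe. The lower of the limits, called the blank limit, is 22.98, the mean plus 2 SD of the array's empty spots. It is a weak sign of expression, since 37.3% of the 1210 genes for receptors of smell and taste, which a macrophage line has little use for, also pass it. The higher, called the receptor limit, is 55.8, a value that 95% of the probes for those receptors do not exceed. Probes differ in how well they bind, so single genes were read against these limits and not ranked against each other; medians over many genes do set different probes side by side and are given as descriptions. Spot-to-spot error could be gauged from control spots. Each of the positive controls was printed 24 times over 6 blocks of the array, with coefficients of variation of 4.98% and 5.37%. Their mean signals, 12934 and 29508, lie far above both limits. The negative controls, with means from 19.0 to 20.3, had coefficients from 3.50% to 8.91%. Single spots of negative controls 1 and 4 read up to 25.9 and 26.3, over the blank limit. The sole gene probe printed more than once read 57.1 and 57.9, a ratio of 1.01, close to the receptor limit.

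Nearly all of the group gave signal. Of the 50 genes, 48 passed the blank limit, or 96.0% (exact Clopper-Pearson 95% interval 86.3 to 99.5), where 72.8% of all named genes did. The receptor limit was passed by 45, or 90% (78.2 to 96.7), where 42.7% of all named genes did. All named genes include the 1210 receptor genes whose probes set this limit, and nearly all of those fall short of it by construction. The median gene signal was 269, or 11.7 times the blank limit, and that of all named genes was 40.1, or 1.74 times. Among genes over the blank limit the medians were 276 and 80.7. The intervals treat genes as draws and cover no difference between arrays. The roles described below hold from 2 to 11 genes each. Their counts are to be read against the same 72.8% and 42.7% of all named genes. Below the blank limit lay Kpna7 and Ranbp17, and between the limits lay Kpna4, Ranbp6 and Tnpo2.

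**Figure D1:**
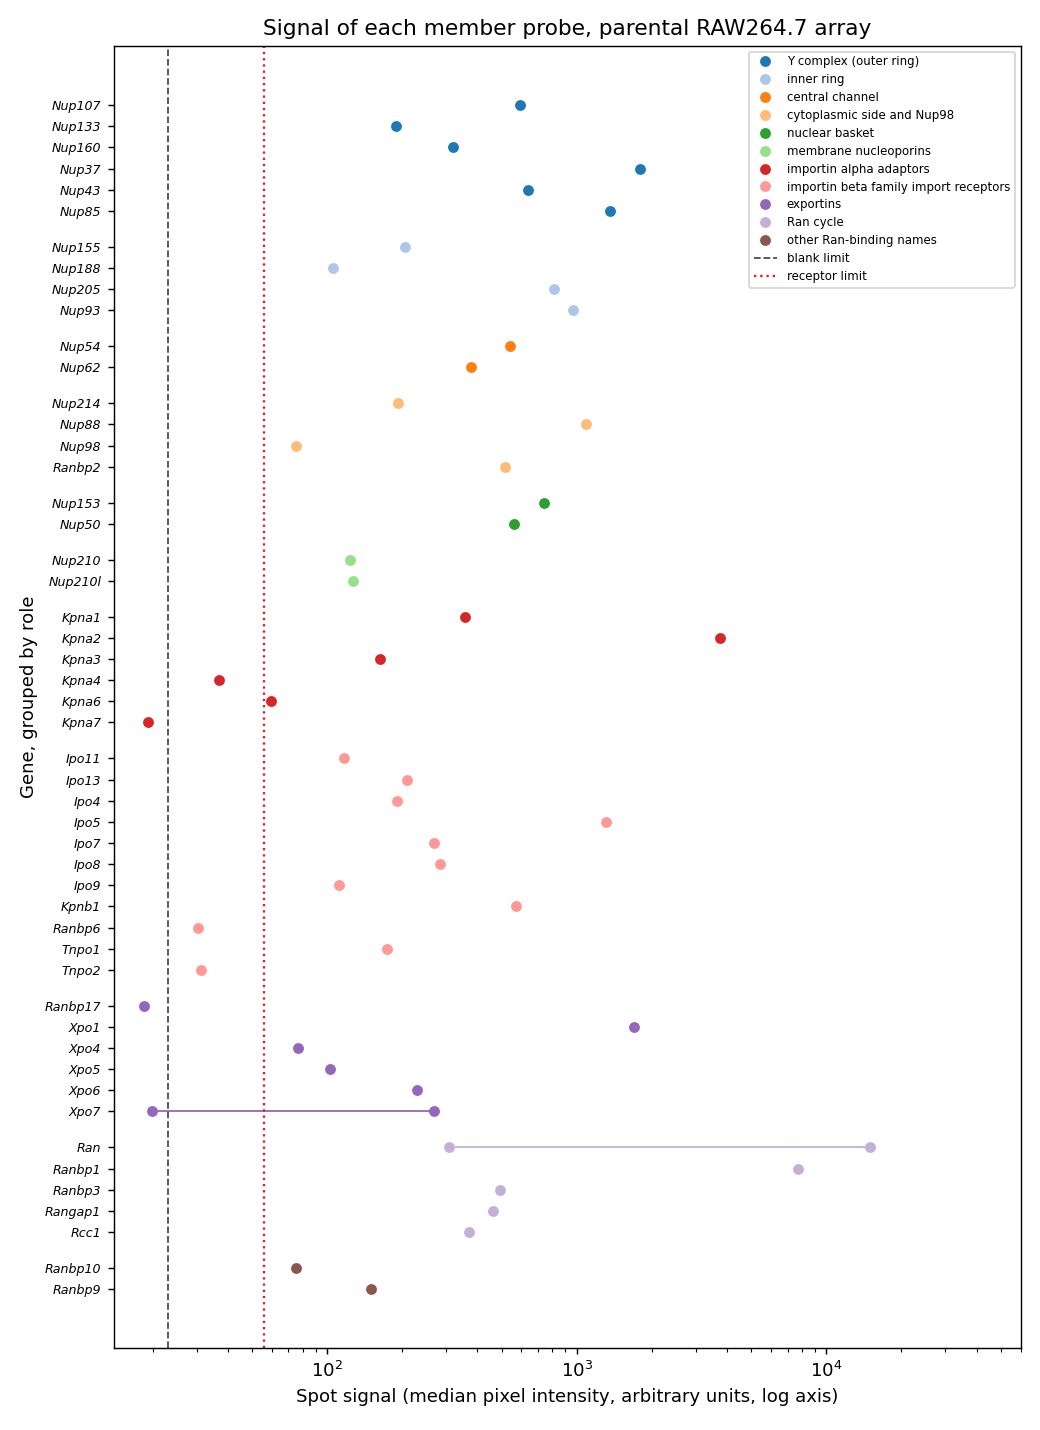
Spot signal of each of the 52 probes on a log axis, with genes in rows grouped by role; a line joins the probes of a gene. The dashed and dotted lines are the blank limit (22.98) and the receptor limit (55.8). Kpna7, Ranbp17 and 1 of the Xpo7 probes sit to the left of both.

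**Figure D2:**
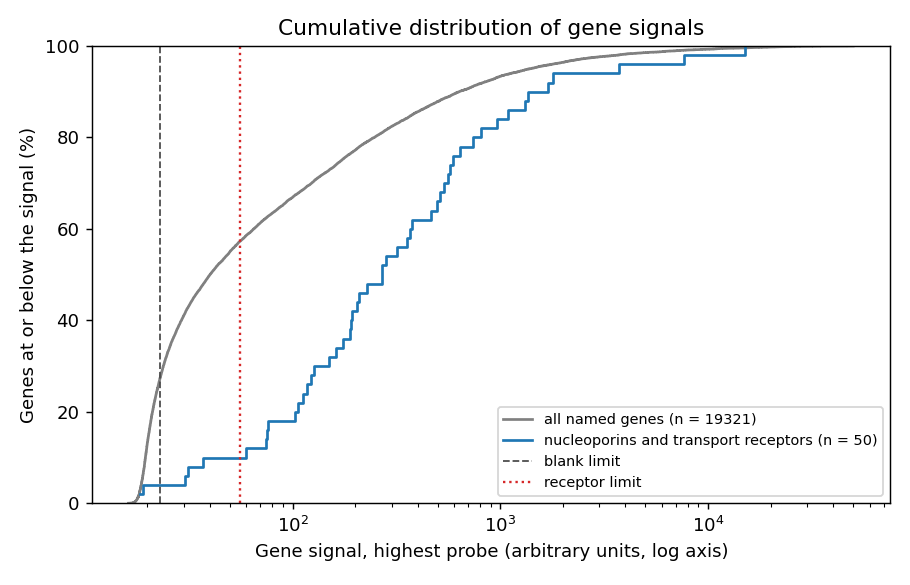
Percent of genes at or below each signal, on a log axis, for the 50 genes described here and all 19321 named genes. The curve of the group lies to the right of the curve of all genes over most of the range, with medians of 269 and 40.1.

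The upstream sequences of 4 members are printed as examples from either side of the limits. Ran and Kpna2 passed both limits by a wide margin, and Kpna7 and Ranbp17 were not over the blank limit. Each is the RefSeq window from 250 bases before to 50 bases after a transcript start, on the strand of the gene, in assembly GRCm38.p6. Capitals mark CG dinucleotides, the sites of DNA methylation, of which many lie in the promoters of widely expressed genes. The windows are Ran, chr5:129019906-129020205, plus strand; Kpna2, chr11:106999476-106999775, minus strand; Kpna7, chr5:145009587-145009886, minus strand; and Ranbp17, chr11:33513704-33514003, minus strand.
Ran: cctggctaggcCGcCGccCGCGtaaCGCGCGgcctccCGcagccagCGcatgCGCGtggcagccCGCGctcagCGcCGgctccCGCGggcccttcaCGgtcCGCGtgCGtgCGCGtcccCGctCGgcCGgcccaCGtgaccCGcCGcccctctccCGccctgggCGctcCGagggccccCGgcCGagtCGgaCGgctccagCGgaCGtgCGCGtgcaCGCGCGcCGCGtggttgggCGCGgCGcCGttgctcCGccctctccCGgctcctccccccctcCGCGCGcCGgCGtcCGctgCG
Kpna2: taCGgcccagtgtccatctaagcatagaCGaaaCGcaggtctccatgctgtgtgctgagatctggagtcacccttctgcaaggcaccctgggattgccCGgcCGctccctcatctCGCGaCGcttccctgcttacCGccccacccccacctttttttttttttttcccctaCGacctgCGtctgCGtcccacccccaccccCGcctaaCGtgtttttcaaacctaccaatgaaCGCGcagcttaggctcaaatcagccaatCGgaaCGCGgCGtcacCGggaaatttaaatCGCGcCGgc
Kpna7: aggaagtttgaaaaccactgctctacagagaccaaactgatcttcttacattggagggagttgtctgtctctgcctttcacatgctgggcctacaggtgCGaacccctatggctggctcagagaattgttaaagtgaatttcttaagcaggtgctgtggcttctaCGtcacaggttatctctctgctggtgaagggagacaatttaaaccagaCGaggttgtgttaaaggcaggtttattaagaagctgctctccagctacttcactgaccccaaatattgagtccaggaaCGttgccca
Ranbp17: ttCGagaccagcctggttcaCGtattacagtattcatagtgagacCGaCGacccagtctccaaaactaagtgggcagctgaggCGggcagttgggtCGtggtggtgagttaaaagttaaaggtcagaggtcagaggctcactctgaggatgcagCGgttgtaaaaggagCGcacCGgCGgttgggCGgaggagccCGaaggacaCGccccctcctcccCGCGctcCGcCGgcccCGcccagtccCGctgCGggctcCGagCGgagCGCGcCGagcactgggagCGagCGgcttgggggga

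The Ran window held 58 CG dinucleotides, that of Kpna2 held 24, that of Ranbp17 held 27 and that of Kpna7 held 4. Among these 4 windows, Kpna7 thus stood far below the others in CG content, while Ranbp17, which also read at blank level, did not. Low counts occurred in members over both limits too. The Nup160 window held 6, and windows of Ipo5 and Nup93 held 0 and 3. The other windows of Ipo5 and Nup93 held 47 and 28. Windows were at hand for 40 of the 50 genes, 47 windows in all because some genes have several starts, and windows of a gene may overlap. Their median was 28 CG dinucleotides, in a range from 0 to 58. The median was 15 over 17988 windows of protein-coding genes on the array, 21 over windows of those past the receptor limit and 6 over windows of those not past the blank limit. At least 10 CG dinucleotides were found in 43 of the 47 windows, or 91.5%, against 61.9% of all windows and 80.5% of those of genes past the receptor limit.

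Short motifs were searched on both strands of these windows. Counts are of windows and not of genes, so bases shared by overlapping windows of a gene can count more than once. The forms of the NRF1 motif overlap each other, and none of the other motifs holds another, though neighbouring matches can share bases. The CCAAT box, spelled CCAAT, was present in 23 of the 47 windows, or 48.9%, and in 37.5% of all windows. The NRF1-type motif GCATGCG was in 7, or 14.9%, against 4.91% of all, and a longer form of it with an open middle base was also in 7, against 7.10% of all. The overlapping windows of Ipo9 both hold the longer form, and those of Nup37 both hold CCAAT. The Ran window above holds both NRF1-type forms. The E-box CACGTG was in 8, or 17.0%, against 8.42%, again with a match in the Ran window. The E2F-type motif TTCCCGC was in 6, or 12.8%, against 6.48%. The ETS-type motif CCGGAAG was in 7, or 14.9%, against 12.3%. The TATA-type motif TATAAA was in 5, or 10.6%, against 11.6%, and the CRE-type motif TGACGTCA in 3, or 6.38%, against 2.43%. In the windows shown, Kpna2 and Kpna7 both hold CCAAT and Ranbp17 holds none of the motifs searched. Every motif searched except CCAAT and TATAAA holds a CG. Member windows are richer in CG, with a median of 28 against 15 over all windows. Windows of like CG content were not compared, so whether the differences go beyond CG content was not tested. A match describes letters and shows no binding.

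The Ran cycle, which gives transport its direction, passed both limits with all 5 of its genes. Ran itself, the small GTPase, read 15035 on probe M300006675, or 654 times the blank limit, and 307 on probe M400012807. The probes thus disagree on the level of the same annotated gene, and both are over both limits. Their ratio, 48.9, also reflects how each probe binds and is no measure of error. Of 1283 genes with several probes on the array, 98.4% had a smaller ratio between their highest and lowest probe, and the median ratio was 1.89. The local background of the brighter Ran spot was 3027, and with background corrected by the normexp method, which here adds an offset of 50 to spots and blanks alike, it stood 179 times over the blank limit of that setting. Ran has a close relative, Rasl2-9, that RefSeq also lists under the older name Ran. Its probe read 10565, and whether the probes of each bind transcripts of the other was not tested, so the signal of Ran is uncertain as a reading of that gene alone.

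The regulators of Ran were read by 1 probe each. Ranbp1 (probe M200001437), which helps to release Ran-GTP from receptors in the cytoplasm, read 7696, or 335 times the blank limit. Rcc1, the chromatin-bound exchange factor that loads Ran with GTP, read 369. Rangap1, which triggers GTP hydrolysis on the cytoplasmic side, read 462. Ranbp3, a cofactor of export by Xpo1, read 495, but the local background around its spot was 486, so the spot stood only 1.02 times over its surroundings. The probe for Ranbp3 is also annotated with a non-coding transcript record.

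Importin alpha proteins bind the classical nuclear localisation signal and link it to importin beta. Of the 6 measured, 5 exceeded the blank limit and 4 exceeded the receptor limit. Kpna2 (probe M400000288), importin alpha 1, abundant in dividing cells, read 3738, or 163 times the blank limit. Its local background was 1382, and with normexp it stood 35.8 times over the limit of that setting. Kpna1 read 357 and Kpna3, whose closest relative is Kpna4, read 163. These 3 adaptors were clear of both limits. Kpna6, a relative of Kpna1, read 59.7, which is 1.07 times the receptor limit, a margin of the same order as the variation between the control spots. Kpna4 (probe M300005777) lay between the limits at 37.0, with a local background of 29.1. Kpna7 (probe M400002190), known from oocytes and early embryos, read 19.1, or 0.833 times the blank limit. Kpna5 was in the list of roles and has no named probe here.

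The import receptors of the importin beta family carry cargo through the pore, alone or with importin alpha. All 11 measured exceeded the blank limit, and 9 also exceeded the receptor limit. Kpnb1, importin beta 1, the partner of the importin alpha proteins, read 570, or 24.8 times the blank limit. Ipo5, which imports ribosomal proteins and histones, read 1312, or 57.1 times the blank limit. Ipo7, a receptor for ribosomal proteins and several signalling factors, read 269 and its relative Ipo8 read 283. Ipo4 and Ipo9, both histone importers, read 191 and 112. Ipo13, which both imports and exports, read 209. All of these receptors passed both limits.

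Ipo11, an importer of ubiquitin-conjugating enzymes, read 117 on a probe annotated with a predicted non-coding record, with a local background of 78.8. Transportins import RNA-binding proteins such as hnRNP A1, and their pair of genes fell on different sides of the receptor limit. Tnpo1 (probe M300001045) read 174, or 3.12 times that limit, and Tnpo2 (probe M200013080) read 31.3, or 0.561 times. Ranbp6 (probe M300016778), a relative of Ipo5, lay between the limits too, at 30.5, and its local background was 26.1. Tnpo3 was listed among the roles and has no named probe here. Whether the low readings come from scarce transcripts or from poor probes was not tested.

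Exportins carry cargo out of the nucleus with Ran-GTP, and 5 of the 6 measured passed both limits. Xpo1 (probe M300002115), known as CRM1, the receptor for leucine-rich export signals, read 1701, or 74.0 times the blank limit. Its local background was 40.5, so that spot stood 42.0 times over its surroundings, the highest such ratio among the 52 probes. Xpo6, the exporter of actin, read 229, and Xpo5, the exporter of precursor microRNAs, read 103. Xpo4, which exports the translation factor eIF5A, read 76.4, or 1.37 times the receptor limit. Xpo7 read 269 on probe M200005622 and 19.8 on probe M400007553, 0.862 times the blank limit, so its probes fall on either side of both limits. Ranbp17 (probe M200015297), a relative of Xpo7 known from testis, read 18.5, or 0.804 times the blank limit. Its probe is annotated with a non-coding transcript record.

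All 10 scaffold nucleoporins measured passed both limits by spot signal, and by the ratio of spot to local background Nup205 passed neither limit and Nup160 only the lower. The Y complex, the outer ring on both faces of the pore, gave 6 of 6 genes over the receptor limit. Nup37 read 1788 and Nup85 read 1364, or 77.8 and 59.3 times the blank limit. Nup43, Nup107, Nup160 and Nup133 read 637, 592, 319 and 190. The local background of Nup160 was 211, a ratio of 1.51 of spot to surroundings. The inner ring, which anchors the scaffold to the membrane and to the central channel, gave 4 of 4 (39.8 to 100). Nup93, its linker protein, read 963, Nup155 read 205 and Nup188 read 106. Nup205 (probe M300011747) read 809 over a local background of 779, so the spot stood 1.04 times over its surroundings. Nup35 was listed for this ring and has no named probe here.

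Nucleoporins with phenylalanine-glycine repeats and those of the pore's faces also passed both limits. In the central channel, Nup54 read 539, and its partner Nup62 read 377 over a local background of 19.9. On the cytoplasmic side, where messenger RNA leaves the pore, Nup88 read 1089 and its partner Nup214 read 192. Ranbp2, the large filament protein also called Nup358, which holds Rangap1 at the pore, read 514. Nup98, whose transcript also encodes the scaffold protein Nup96, read 74.9, or 1.34 times the receptor limit. In the nuclear basket, Nup153 read 742 over a local background of 442 and Nup50 read 562 over 91.9. All 8 of these genes except Nup98 were at least 3 times over the receptor limit on their probes.

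Both membrane nucleoporins of the pattern passed both limits. Nup210, a transmembrane protein of the pore, read 123, or 2.21 times the receptor limit. Nup210l (probe M300005847), its paralog known from testis, read 127, or 2.27 times that limit and 2.99 times its local background of 42.4. The probe of Nup210l thus passed both limits, unlike those of the germ-line members Kpna7 and Ranbp17. The binding of Nup210 transcripts to the Nup210l probe was not tested. The germ cell markers Prm1 and Zp3 read 17.7 and 19.0, under the blank limit, and Ddx4 read 190. Their part in the reading of Nup210l was not tested. Ranbp9 and Ranbp10, named for Ran binding but known as scaffolds of a ubiquitin ligase complex, read 149 and 75.4.

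Local background set some of these readings apart. Of the 46 probes over the receptor limit, 2, those of Ranbp3 and Nup205, stood less than 1.2 times over their surroundings, or 4.35%, as did 2.71% of all probes with a symbol past that limit. The median ratio of spot to local background was 4.02 over these 46 probes and 2.94 over all such probes. Among the spots next to that of Ranbp3 the brightest read 97.1, and next to that of Nup205 it read 1235. With normexp, Ranbp3 and Ranbp10 were the members that no longer passed the receptor limit, at 0.790 and 0.951 times the limit of that setting, and Nup205 stayed over it at 1.03 times. The same 2 genes were lost with spot minus local background, a setting added after the data were seen. Judged by the ratio of spot to surroundings alone, also added afterwards, Ranbp3, Nup205, Kpna4 and Ranbp6 were not over the 95th percentile of the blanks, 1.37. Against the 95th percentile of the receptor probes, 1.99, that ratio ended the call of 7 members, namely Ipo11, Nup153, Nup160, Nup205, Ranbp3, Ranbp10 and Xpo4.

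**Figure D3:**
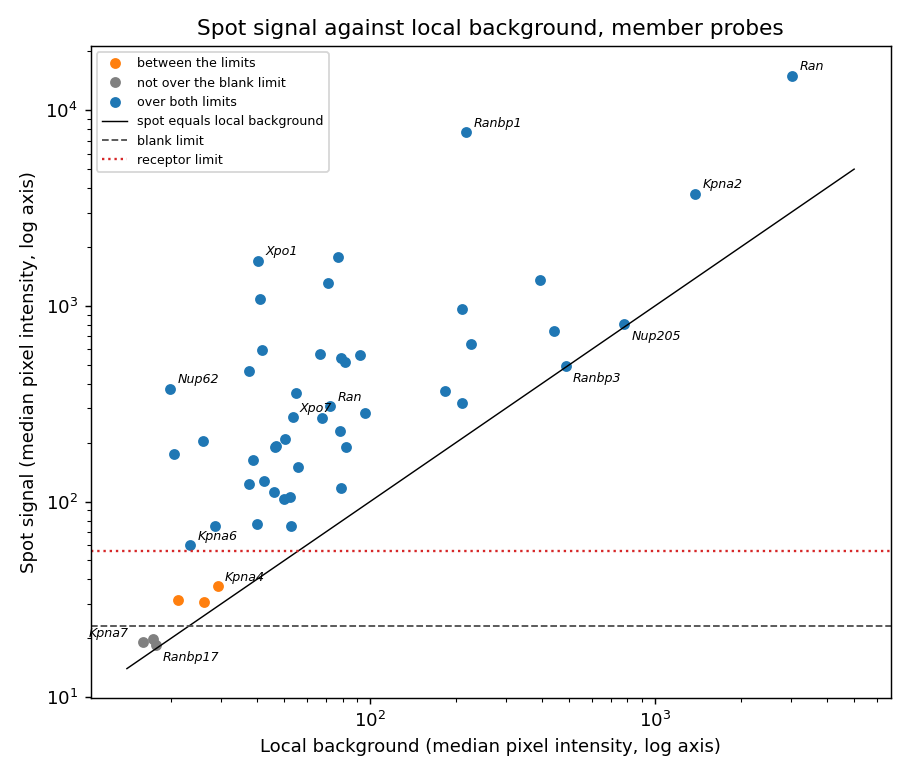
Spot signal against local background for the 52 probes, both on log axes, coloured by the side of the limits; the black line marks equality. Ranbp3, Nup205 and Ranbp17 lie just above that line, at ratios of 1.02, 1.04 and 1.04, and Xpo1 lies far above it, at 42.0.

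Genes that work with these members but fall outside the symbol pattern were listed separately. Of 29 symbols listed, 21 genes had a named probe. All 21 passed the blank limit (83.9 to 100), where 72.8% of all named genes did. The receptor limit was passed by 20, or 95.2% (76.2 to 99.9), where 42.7% did. The list was chosen with earlier results of these data known, and the intervals treat its genes as draws, which they were not. Cse1l, the exportin that returns importin alpha to the cytoplasm, read 2745, or 119 times the blank limit. Of the Y complex subunits outside the pattern, Sec13 read 1526 and Seh1l read 397, and Ahctf1, known as ELYS, which seeds pores on chromatin, read 184. The membrane nucleoporins Ndc1 and Pom121 read 707 and 516.

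Messenger RNA export factors were among the partners too. Nxf1, the main export receptor of messenger RNA, read 887, its partner Nxt1 read 1004 and Rae1, which docks at Nup98, read 1509. Gle1, which activates the export helicase, read 304. Ddx19b, that helicase, lay between the limits at 42.6. Xpot, the exporter of transfer RNA, passed both limits on its 3 probes, at 344, 307 and 225. Nupl1, the third protein of the central channel, also called Nup58, read 127. Ranbp3l, a relative of Ranbp3, read 574 over a local background of 178.

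The share of the 50 genes over each limit was recomputed under other settings. Over the blank limit it ran from 88.0% to 96.0%, where all named genes ran from 55.7% to 77.2%. Over the receptor limit it ran from 70.0% to 90%, where all named genes ran from 27.5% to 49.6%. The lowest share over the receptor limit came with the 99th percentile of the receptor probes in place of the 95th.

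**Figure D4:**
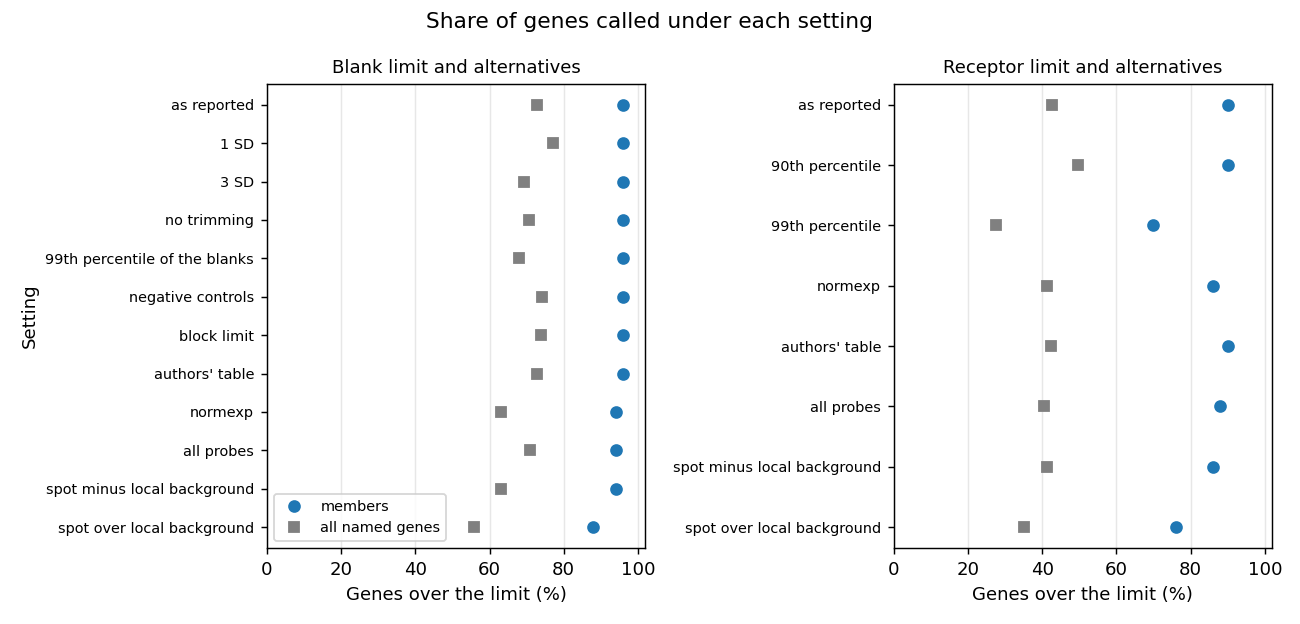
Percent of genes over the blank limit (left) and the receptor limit (right) under each setting tried, for the 50 genes described here and for all named genes. The members range from 88.0% to 96.0% on the left and from 70.0% to 90% on the right.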

How the data were processed

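One array of parental RAW264.7 RNA was read. Per the file headers, the scanner file the authors deposited gives median intensity at 635 nm for every spot and for its local background, combined from 3 gains by a tool that is not stated. The authors' deposited table of processed intensity, of unstated scale, matched 0.486 times the signal above the mean of the blanks to within 0.499 units on the 49 member probes with a value, and was empty for the other 3. No spot of 27456 was flagged as bad.

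Symbols came from the platform annotation and were updated through gene identifiers to RefSeq, assembly GRCm38.p6, used for names and promoter windows. Of 23473 gene probes, 20690 had 1 symbol, 0 had several and 2783 had none, and 20556 matched. The blank limit used 2464 of 2736 blanks, after 5% were left out at each end (mean 20.6, SD 1.18). The receptor limit used 1221 probes.

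All members are described, by role. The members, roles, partner list and markers were chosen with earlier results of these data known. Alternatives covered the limits, the negative controls, block limits, the authors' table, normexp (offset 50), probe rules and updated symbols; the settings using spot minus or over local background were added after the data were seen. Promoter motifs were chosen after the signals were seen. The limit calculation was run on simulated data, with blanks and unraised probes drawn from the same normal distribution. That run checks the arithmetic and not how the limit performs on the array. Python 3.11.15, scipy 1.17.1, pandas 2.3.3, R 4.3.3 and limma 3.58.1 were used.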

Additional observations from a re-analysis of the deposited data

How the results depend on the processing

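The share of the 50 genes over the blank limit was 96.0% in every setting that changed how the blanks or negative controls set that limit, 94.0% with normexp, with spot minus local background and when all probes had to pass, and 88.0% with the ratio of spot to local background. The share over the receptor limit was 70.0% with the 99th percentile of the receptor probes, 76.0% with the ratio of spot to local background, and 86.0% to 90% in the other settings; a higher percentile calls fewer genes by its construction, and the cause of the shift with the ratio was not tested. The 10 genes lost at the 99th percentile were Ipo9, Ipo11, Kpna6, Nup98, Nup188, Nup210, Nup210l, Ranbp10, Xpo4 and Xpo5. The share of partner genes over the receptor limit was 100% with the 90th percentile and 81.0% with the 99th. It was 90.5% when all probes had to pass, which lost Senp2. With the ratio of spot to local background it was 76.2%, which lost Aaas, Mad1l1, Nxt2 and Rangrf. For all named genes these shares were 49.6% and 27.5% with those percentiles, 40.4% with all probes and 35.2% with the ratio. Over the blank limit, all named genes gave 63.2% with normexp or spot minus local background, 70.9% with all probes and 55.7% with the ratio. The median of the 50 genes was 249 with the lowest or the mean probe of each gene and 276 over genes past the blank limit. Of single genes read against each limit, 7 of 500 values changed side of the blank limit and 22 of 350 of the receptor limit. No paired analysis was possible because there is 1 sample. Signal over background limits the members near the limits, such as Ranbp6, at 1.33 times the blank limit by spot signal and 0.979 times with normexp.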

Other observations

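Several of these genes overlap another gene in the RefSeq table, and 32 of the 50 do so with at least 1 entry of any kind, mostly non-coding RNAs. The share of all genes with such an overlap was not computed, so this count is not a trait of the group. Nup43 overlaps Pcmt1, a protein repair methyltransferase gene, which read 741 on its own probe. Nup98 overlaps Pgap2, a gene of GPI anchor remodelling, which read 628. Ranbp9 overlaps Nol7, a nucleolar protein gene, which read 1645, and Xpo7 overlaps Dok2, an adaptor gene of blood cells, which read 753. Nup62 overlaps Atf5 and Il4i1b, which read 90.4 and 90.6, and Nup88 overlaps Rabep1, an endosomal Rab effector gene, at 94.5. Other overlapping genes read low, namely Fam78a with Nup214 at 22.7, under the blank limit, and between the limits Art1 with Nup98 at 25.1 and Tsnaxip1 with Ranbp10 at 31.5. The strand and the part of a transcript that each probe reads were not analysed here, and whether the overlapping transcripts bind these probes was not tested.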
